A study of Homo sapiens with 36 samples.

Results

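The subject is how the transcriptional response of a control cell line to doxycycline (dox) at 96 h differed from its response at 48 h. The cells were MIA PaCa-2, an established human pancreatic ductal adenocarcinoma line, carrying dox-inducible Cas9 and a non-targeting control guide (NTC). The members are the 12 libraries of this line, of 36 in all: 3 each at 48 h without dox, 48 h with dox, 96 h without dox and 96 h with dox. Dox was given at 2 µg/mL, and every group was grown in RPMI with tetracycline-free serum. The other 24 libraries are 2 lines of the same design with a guide against HBS1L or against PELO, genes of the complex that frees ribosomes stalled on messenger RNA. Dox in the control line therefore brings both the drug and Cas9 induction, but no intended cut, and the dox and the no-dox cultures both carry the guide. Whether the line is 1 clone or a pool, and whether the replicates were separate cultures, is not stated in the labels. The p-values therefore rest on the spread among libraries of a group, which may be technical. Within each time the dox and the no-dox libraries carry numbers of the same block, and the 2 times carry numbers of separate blocks. A shift common to a block cancels in the difference between the responses, while time itself cannot be told apart from block.

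Dox is an antibiotic that binds bacterial ribosomes and can also slow translation in mitochondria, whose ribosomes resemble those of bacteria. Cells sense mitochondrial, endoplasmic reticulum and amino acid stress through kinases that phosphorylate eIF2 alpha. That slows general translation and raises ATF4, which with C/EBP partners switches on genes of amino acid synthesis and uptake; this is the integrated stress response.

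Libraries held 46219974 to 62618372 counts, and mitochondrially encoded genes took 0.922 to 2.59% of them. The replicates numbered 3 of both 96 h groups stood apart: their counts differed from those of the other libraries of their group by a chi-square per degree of freedom of 13.4 to 19.1, against 3.34 to 8.41 for every other pair within a group. Counts at 96 h that move without both of them are given with and without them. The marker check was in part against the tissue label: KRT8, KRT18, KRT19, SOX9 and CLDN4 of simple epithelium were measured, with means of 1576, 1587, 226, 120.2 and 79.4 CPM (counts scaled to library size), but EPCAM and CDH1 held at most 2.5 counts in any library. None of the 11 acinar markers and none of the 5 genes listed for chromosome band 9p21 (CDKN2A, CDKN2B, MTAP, DMRTA1, FOCAD) passed the filter on low counts. Their highest counts in any library were 3 and 2. The guide targets of the other lines did not pass the test here: the difference between the responses (log2, 96 h minus 48 h) was 0.10 ± 0.08 for PELO (adjusted p = 0.36) and -0.08 ± 0.04 for HBS1L (adjusted p = 0.215).

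The response to dox was much wider at 48 h than at 96 h, and the 2 responses differed for 5496 of 20767 genes tested (26.5%). At 48 h, 7278 genes (35%) passed the test, 3951 higher with dox (19%) and 3327 lower (16%). At 96 h it was 1561 genes (7.52%), 808 higher (3.89%) and 753 lower (3.63%). In the difference between the responses, a positive value means that the response was more positive, or less negative, at 96 h. This was so for 2563 genes (12.3%), and a negative value was found for 2933 (14.1%). Differences of at least 2-fold were found for 320 genes in the positive direction (1.54%) and 352 in the negative (1.69%). Values after ± are standard errors worked back from the log2 value and its F statistic, in a fit over all 36 libraries with 3 a group. The 95% intervals used below rest on the same errors. Each test was edgeR's quasi-likelihood F test, with p-values adjusted by Benjamini-Hochberg over all genes. The 96 h count rests on few libraries: it was 481 without replicate 2 of the 96 h no-dox group, 527 without replicate 3 of the 96 h dox group, 664 without replicate 1 of the no-dox group and 992 without replicate 1 of the dox group, and 2141 without replicate 3 of the no-dox group. It was 811 without both replicates numbered 3. The main count was 4831 without both.

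At the margin used here, most of the genes that differed responded at 48 h only. A gene was placed in this class if it passed the test at 48 h and in the difference, and the 95% interval of its log2 response at 96 h lay within 0.3 of 0. This held for 3168 genes (15.3% of those tested, 57.6% of those that differed), with 1629 higher and 1539 lower with dox at 48 h. Their median absolute log2 response was 0.31 at 48 h and 0.06 at 96 h, values that the rule in part sets. A margin of 0.2 in place of 0.3 left 1984 genes in this class, which is then no longer the majority. The class name means a response within the margin at the other time, and 112 of the 3168 also passed the test at 96 h. By the mirrored rule 360 genes responded at 96 h only (1.73%), 231 higher and 129 lower, with a median absolute response of 0.21, and 82 of them also passed the test at 48 h. Of the genes in neither class, 306 (1.47%) passed at both times and in the difference with opposite directions, and 263 (1.27%) passed at both times in the same direction with no call in the difference. A smaller response of the same sign at 96 h was found for 32 genes (0.154%) and a larger one for 6 (0.0289%), and 1624 (7.82%) could not be placed. Without both replicates numbered 3 the class of 96 h only held 234 genes and that of opposite directions 231. It held 161, 100 and 550 without replicate 1, 2 or 3 of the 96 h no-dox group and 120 without replicate 3 of the 96 h dox group. The class of opposite directions held 174 without replicate 2 of the 96 h no-dox group and 187 without replicate 3 of the 96 h dox group.

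**Figure D1:**
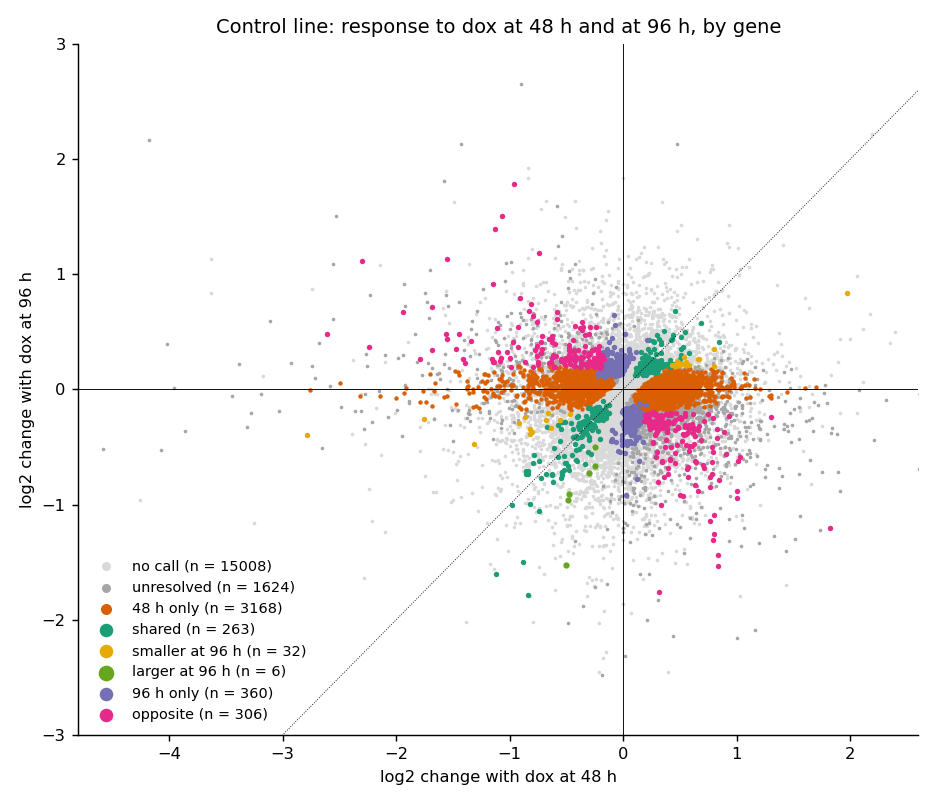
Log2 change with dox at 48 h (horizontal) against that at 96 h (vertical) in the control line, 1 point per gene, coloured by class; the dotted line marks equal responses. The 3168 genes of the 48 h only class lie along the horizontal axis, and 17 genes fall outside the axes.

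In the 48 h only class the culture without dox was more often the one with the larger change between the times. Of these 3168 genes, 68.9% changed more from 48 h to 96 h without dox than with dox, against 50.6% of all genes tested. In the class of 96 h only this share was 9.44%, and in the class of opposite responses it was 30.1%. These shares use the libraries that defined the classes and are a description. Many genes changed in both cultures. Of the 3168, 1099 passed the test between the times without dox only, 648 with dox only and 1390 in both. Over all 20767 genes tested it was 3527, 3459 and 7268. Between the times, 10795 genes (52%) passed the test without dox, 5186 higher at 96 h (25%) and 5609 lower (27%). With dox 10727 genes (51.7%) passed, 5196 higher (25%) and 5531 lower (26.6%). Many of the genes below had the untreated 48 h libraries on one side and the other 9 libraries nearer each other.

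Genes of the integrated stress response showed this pattern. Over 6 lists with 76 tested members, 60 had a higher and 3 a lower difference between the responses, with a median of 1.02 on the log2 scale against -0.035 over all genes tested. At 48 h, 60 members fell with dox and 3 rose. At 96 h, 7 fell and 3 rose, and without both replicates numbered 3 it was 3 and 0. By class, 50 of the 76 responded at 48 h only and 0 at 96 h only. The counts of this and every later list stand against 12.3% positive and 14.1% negative over all genes tested in the difference, 19% higher and 16% lower at 48 h, and 3.89% higher and 3.63% lower at 96 h. The lists were chosen with earlier results of these data known, so these counts describe the genes and are no independent support.

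All 9 genes of the list of transcription factors of the response, which also holds TRIB3, passed in the positive direction, with a median of 1.64. TRIB3 (ENSG00000101255.12, chromosome 20, 362835 to 397559 on the + strand of GRCh38), a pseudokinase that dampens the response, held 269.9, 286 and 277 CPM in the untreated 48 h libraries. It held 49.99, 47.6 and 49.8 CPM with dox at 48 h, 63.9, 59.1 and 61.8 without dox at 96 h and 60.8, 62.6 and 68.4 with dox at 96 h. The untreated 48 h libraries thus lay far above every other library, and the 2 groups at 96 h overlapped. Its log2 response was -2.50 ± 0.06 at 48 h (adjusted p = 3.89e-27) and 0.05 ± 0.06 at 96 h (adjusted p = 0.648), a difference of 2.55 ± 0.08 (adjusted p = 5.93e-23). ATF5, a relative of ATF4 that acts in mitochondrial and amino acid stress, held 420.4, 449 and 422 CPM untreated at 48 h, and the other 9 libraries held 119.6 to 134 CPM. Its difference between the responses was 1.64 ± 0.06. For CEBPB, a C/EBP factor, the difference was 1.65 ± 0.07, with 127, 122 and 126 CPM untreated at 48 h and 42.7, 44.7 and 46.9 CPM with dox. ATF4 itself fell by 1.27 on the log2 scale at 48 h, with group means of 565 and 234 CPM, and had a log2 response of -0.16 at 96 h (adjusted p = 0.117).

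Genes that ATF4 is known to control behaved alike. Of 14 enzymes of amino acid and one-carbon synthesis, 13 passed in the positive direction (median 0.96). MTHFD2, a mitochondrial one-carbon enzyme, held 574, 556 and 574 CPM untreated at 48 h, 234, 244 and 243 with dox, and 284 to 316 CPM over the 6 libraries at 96 h. PSAT1 of serine synthesis changed by -1.36 ± 0.05 at 48 h and -0.03 ± 0.05 at 96 h (adjusted p = 0.784). GPT2, which makes alanine, changed by -1.30 ± 0.04 at 48 h and -0.15 ± 0.04 at 96 h (adjusted p = 0.0328, and 0.116 without both replicates numbered 3). ALDH18A1, of proline synthesis, was the member that did not pass. All 11 tested amino acid transporters passed (median 1.23). SLC1A4, a neutral amino acid carrier, held 44.6, 47.6 and 43.96 CPM untreated at 48 h and 9.29, 9.13 and 8.81 CPM with dox, and at 96 h 12.2, 11.6 and 11.6 CPM without and 9.98, 11.1 and 12.9 CPM with dox. The untreated 48 h libraries were the high ones, and the 96 h groups overlapped. SLC3A2 and SLC6A9, the heavy chain of several exchangers and a glycine carrier, had differences of 1.13 ± 0.07 and 1.82 ± 0.11.

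Of 20 cytosolic aminoacyl-tRNA synthetases, which charge tRNAs with amino acids, 14 passed, all in the positive direction (median 0.62). GARS1 fell from 729.6, 748 and 754 CPM to 339.6, 332 and 338 CPM with dox at 48 h and held 346 to 369.5 CPM at 96 h. SARS1 and CARS1 had differences of 0.98 ± 0.05 and 1.08 ± 0.06. The 6 that did not pass were FARSA, FARSB, HARS1, KARS1, QARS1 and RARS1, with log2 differences between -0.08 and 0.13. Of 13 tested secreted and effector genes, 11 passed, all positive (median 1.89). VEGFA, the angiogenic growth factor, held 168, 162 and 161 CPM untreated at 48 h, and the other 9 libraries held 39.2 to 43.6 CPM. SESN2, an inhibitor of mTORC1 signalling, fell by 2.00 on the log2 scale at 48 h and had a response of -0.07 ± 0.07 at 96 h (adjusted p = 0.593). DDIT4, another mTORC1 inhibitor, fell from 288, 297 and 294 CPM to 86.98, 92.6 and 93.3 CPM at 48 h and held 103 to 126 CPM at 96 h; exons of other genes overlap 41.2% of its exonic length.

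The eIF2 alpha kinases themselves moved little. Of 9 genes in the list of kinases, phosphatase subunits and their partners, 2 passed in the positive and 3 in the negative direction. The negative count was 1 without replicate 2 or 3 of the 48 h no-dox group, without replicate 2 of the 96 h no-dox group, and without both replicates numbered 3. PPP1R15A, the inducible subunit that removes the eIF2 alpha phosphate, held 124, 135 and 128 CPM untreated at 48 h and 56.5, 57.1 and 59.2 CPM with dox, a difference between the responses of 1.17 ± 0.09. PPP1R15B, the constitutive subunit, had 0.52 ± 0.07. EIF2AK1, the kinase that relays mitochondrial stress, had -0.17 ± 0.05 (adjusted p = 0.012), and OMA1, the mitochondrial protease upstream of it, -0.24 (adjusted p = 0.0279, and 0.0121 to 0.0821 with 1 library left out). EIF2AK2, another kinase of the list, also passed in the negative direction. With 1 library left out its difference was -0.20 to -0.35 (adjusted p = 0.0225 to 0.153). EIF2AK3 and EIF2AK4, the kinases of endoplasmic reticulum and amino acid stress, did not pass (adjusted p = 0.48 and 0.638).

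**Figure D2:**
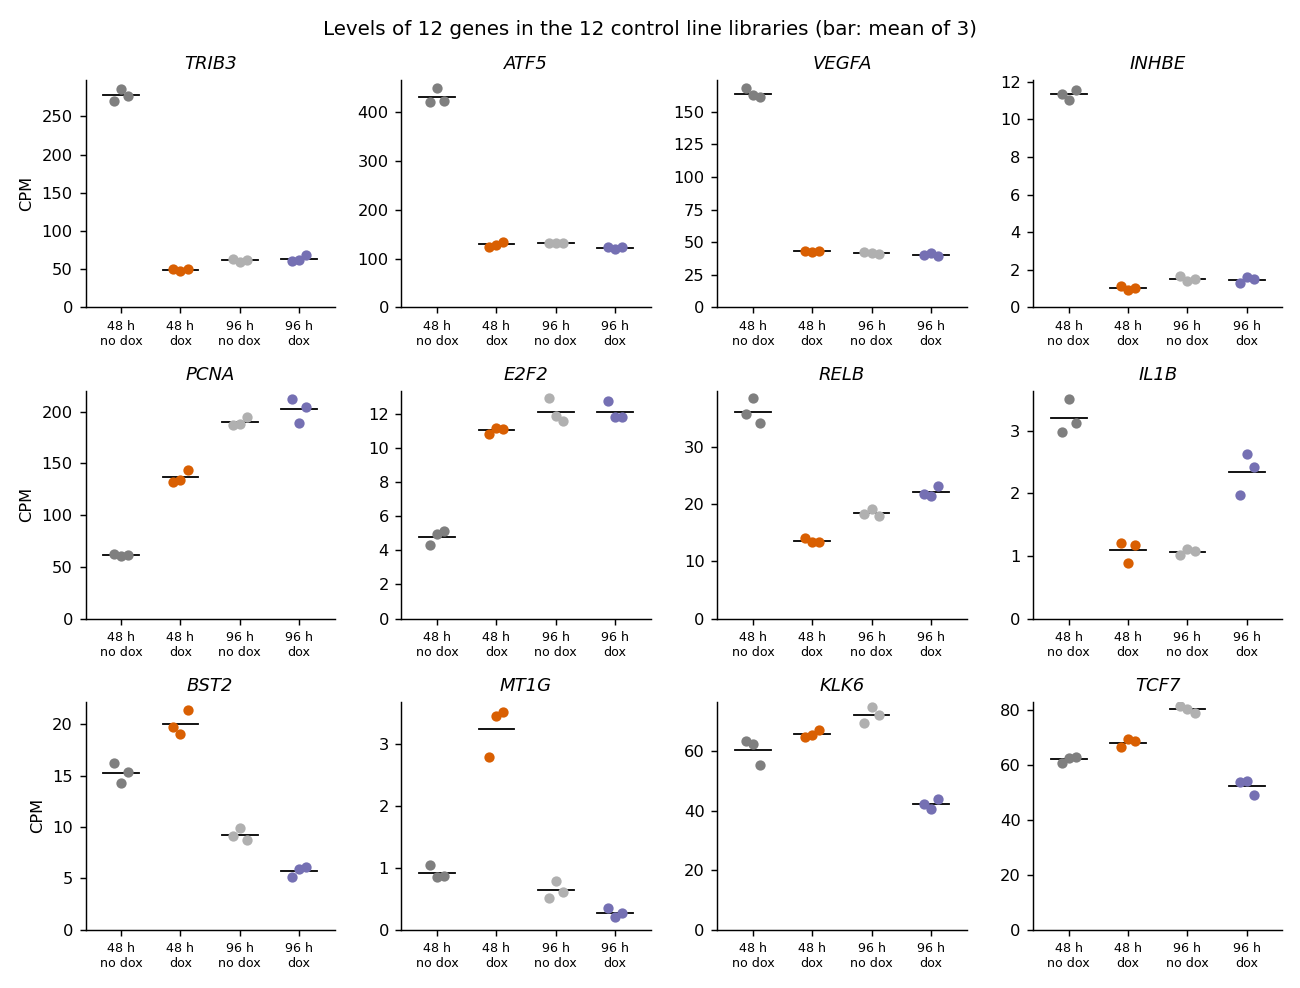
Level in CPM (vertical, linear, from 0) of 12 genes in each of the 12 control line libraries (points), by time and dox; bars are means of 3. TRIB3, ATF5, VEGFA and INHBE are high and E2F2 low in the untreated 48 h libraries alone. PCNA is lowest there and intermediate with dox at 48 h, while KLK6 and TCF7 are lowest with dox at 96 h.

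The largest positive differences included genes of unlike function. They were picked among genes whose dox libraries all lay on 1 side of the untreated ones at 48 h or at 96 h. Their separation is therefore in part set by the choice. FUT1, an enzyme of blood group antigen synthesis, held 3.87, 4.23 and 3.65 CPM untreated at 48 h and 0.193 to 0.379 CPM in the other 9 libraries, a difference of 3.97 ± 0.47. INHBE, the activin E subunit and an ATF4 target, held 11.4, 11.1 and 11.6 CPM untreated at 48 h and 0.947 to 1.68 CPM elsewhere (3.39 ± 0.19). KLHDC7B, a kelch protein, NIBAN1, a stress-induced regulator of translation, and RAB39B, a small GTPase, had differences of 3.61 ± 0.29, 3.09 ± 0.13 and 3.08 ± 0.19. In all of these the untreated 48 h libraries were the high ones. IL21R, the interleukin 21 receptor, was low in 1 group instead: 0.429, 0.268 and 0.251 CPM with dox at 48 h, against 5.14, 4.81 and 3.94 CPM untreated, and 2.57, 2.38 and 2.09 and 1.55, 2.08 and 1.84 CPM at 96 h without and with dox.

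Promoter stretches are shown for genes described here that carry the letters TGATGNAA, the composite element read by C/EBP and ATF4 dimers. The motif was searched on both strands (TTNCATCA on the other) in RefSeq windows of GRCh38.p14, from 250 bases before to 50 after the first start listed for each gene. It was found in 16 of 63 windows of the 6 lists (25.4%), in 3.67% of all 27305 windows and in 1.77% of the 12108 windows of genes tested here. Windows of genes with a positive difference of at least 2-fold held it in 12% of cases (22 of 183), and those with a negative difference of at least 2-fold in 1.6% (3 of 188). In these lists, 16 of 16 tested members with the motif and 31 of 46 without it passed in the positive direction, with medians of 1.04 and 1.06. A match is a description of the letters and not a bound site. The stretches are those of named genes that hold the match before that start and overlap no annotated exon, whichever way the gene moved. They were chosen after the values were seen, and the match is in capitals.
ATF3 (chr1:212565190-212565249, + strand): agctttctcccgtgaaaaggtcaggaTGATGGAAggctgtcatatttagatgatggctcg
PPP1R15B (chr1:204412011-204412067, - strand): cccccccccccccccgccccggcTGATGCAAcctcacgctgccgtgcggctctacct
HERPUD1 (chr16:56931940-56931999, + strand): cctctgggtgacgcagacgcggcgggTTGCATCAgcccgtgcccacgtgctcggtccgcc
FUT1 (chr19:48755444-48755503, - strand): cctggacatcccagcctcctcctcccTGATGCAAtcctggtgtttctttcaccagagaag
KLHDC7B (chr22:50545722-50545781, + strand): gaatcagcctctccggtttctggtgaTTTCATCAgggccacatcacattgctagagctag
IL21R (chr16:27427127-27427186, + strand): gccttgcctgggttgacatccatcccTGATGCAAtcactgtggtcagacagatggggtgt
KLK6 (chr19:50969721-50969780, - strand): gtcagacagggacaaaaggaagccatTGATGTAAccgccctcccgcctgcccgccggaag
SYTL1 (chr1:27341950-27342009, + strand): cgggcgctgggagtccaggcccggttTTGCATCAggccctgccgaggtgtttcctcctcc
ATF3, a stress-induced repressor, had a difference between the responses of 2.09 ± 0.15. KLK6 and SYTL1 hold the letters too and had negative differences, -0.90 ± 0.07 and -0.94 ± 0.16. The stretch of IL21R precedes the RefSeq start but lies within the span that the gene has in the GENCODE annotation. ASNS, which makes asparagine, and CHAC1, which degrades glutathione, hold the letters in their windows as well, with differences of 1.51 and 2.33. The stretch upstream of FUT1 is also, on the opposite strand, the stretch upstream of FGF21, a hormone of the response, since the 2 genes lie head to head on chromosome 19. FGF21 held a mean of 1.96 CPM untreated at 48 h and 0.0813 CPM with dox, and 0.122 and 0.08503 CPM at 96 h, too few counts outside the first group for a fold.

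Other stress programmes moved in part. Of 21 genes of the endoplasmic reticulum unfolded protein response, 11 had a positive and 6 a negative difference (median 0.27), and 15 responded at 48 h only. XBP1, its transcription factor, held 193, 192 and 192 CPM untreated at 48 h, 68.6, 69.7 and 71.9 CPM with dox and 82.8 to 102 CPM at 96 h. HSPA5, the main chaperone of that compartment, fell by 0.81 on the log2 scale at 48 h, with 0.10 ± 0.05 at 96 h (adjusted p = 0.193). HERPUD1, which clears misfolded proteins, had a difference of 1.17 ± 0.06. Of 12 genes of the mitochondrial unfolded protein response, 4 passed in the positive and 2 in the negative direction, among them LONP1 (a protease, 0.79 ± 0.05), HSPA9 (a chaperone, 0.70 ± 0.05) and HSPE1 (a co-chaperonin, -0.71 ± 0.10). Autophagy and lysosome genes were positive for 18 and negative for 1 of 36, including SQSTM1 (0.92 ± 0.06) and MAP1LC3B (1.09 ± 0.06), a cargo receptor and the membrane tag of autophagosomes. NRF2 targets, which detoxify oxidants, were positive for 13 and negative for 2 of 27. HMOX1 of heme breakdown reversed: it fell by 0.73 on the log2 scale at 48 h and rose by 0.32 on the log2 scale at 96 h (adjusted p = 0.00404, and 0.104 without both replicates numbered 3). Among heat shock genes 3 of 18 were positive and 5 negative.

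DNA replication genes moved the other way. Of 42 tested, 39 had a negative and 0 a positive difference, with a median of -0.56, and 38 responded at 48 h only. At 48 h, 41 rose with dox (median 0.55). At 96 h, 1 rose and 1 fell (median 0.05), or 2 and 0 without both replicates numbered 3. PCNA (ENSG00000132646.11, chromosome 20, 5114953 to 5126626 on the - strand of GRCh38), the sliding clamp of DNA polymerase, held 62.6, 60.8 and 61.4 CPM untreated at 48 h and 132, 134 and 144 CPM with dox. At 96 h it held 187, 188 and 195 CPM without and 212, 189 and 205 CPM with dox. The untreated 48 h libraries were the lowest and the 96 h groups overlapped, with a difference of -1.06 ± 0.08 (adjusted p = 1.37e-13). E2F2, an activator of S phase genes, held 4.33, 4.95 and 5.13 CPM untreated at 48 h and 10.8 to 12.9 CPM elsewhere. MCM4, of the replicative helicase, changed by 0.84 ± 0.05 at 48 h and 0.02 ± 0.05 at 96 h. All 42 genes rose from 48 h to 96 h without dox (median 0.98), and 37 did so with dox (median 0.41).

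The rest of the cell cycle was less uniform. Mitosis genes rose with dox at 48 h for 20 of 35 and at 96 h for 6 (2 without both replicates numbered 3), and the difference was negative for 10 and positive for 3. PTTG1, securin, had -0.49 ± 0.07. Of 16 tested G1 cyclins and inhibitors, 6 were negative and 4 positive, and 3 each without replicate 2 of the 96 h dox group. CDKN2C and CCND3, a kinase inhibitor and a D cyclin, had -0.75 ± 0.09 and -0.64 ± 0.10, and both were lowest untreated at 48 h. CCND2, another D cyclin, reversed, from -1.94 ± 0.13 at 48 h to 0.67 ± 0.15 at 96 h. Polyadenylated histone messages were positive for 5 and negative for 1 of 17, with 1.02 ± 0.11 for H2AC6. Among p53 targets 10 of 27 were positive and 6 negative. GADD45A, a growth arrest gene that ATF4 also induces, held 92.6, 86.5 and 87.5 CPM untreated at 48 h, 29.5, 29.6 and 32.8 CPM with dox and 36.03 to 45.1 CPM at 96 h. BBC3 and PMAIP1, pro-death members of the BCL2 family, had differences of 1.35 ± 0.08 and 1.11 ± 0.11; over that family 8 of 17 were positive and 1 negative.

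Respiratory chain genes of the nucleus also rose with dox at 48 h. Of 76 tested, 34 had a negative and 2 a positive difference (median -0.22), 60 rose with dox at 48 h and 0 passed at 96 h. NDUFB3, a subunit of complex I, held 21.9, 18.7 and 20.02 CPM untreated at 48 h and 35.9 to 43.04 CPM elsewhere. Genes of the mitochondrial genome did not show a settled result: 1 of 13, MT-ND5, passed (0.81 ± 0.30, adjusted p = 0.0463), and 0 of 13 passed with dox at either time. MT-ND5 held 321, 244 and 662 CPM in the untreated 96 h libraries, so replicate 3 stood above the other 2. Without that replicate 10 of 13 passed in the difference, all in the positive direction, and the same count was found without both replicates numbered 3. In that last fit 12 of 13 were also higher with dox at 96 h. MT-ND5 itself lost its call when any other single control library was left out. Mitochondrial ribosomal and translation genes passed for 6 in each direction of 51, shares near those over all genes.

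**Figure D3:**
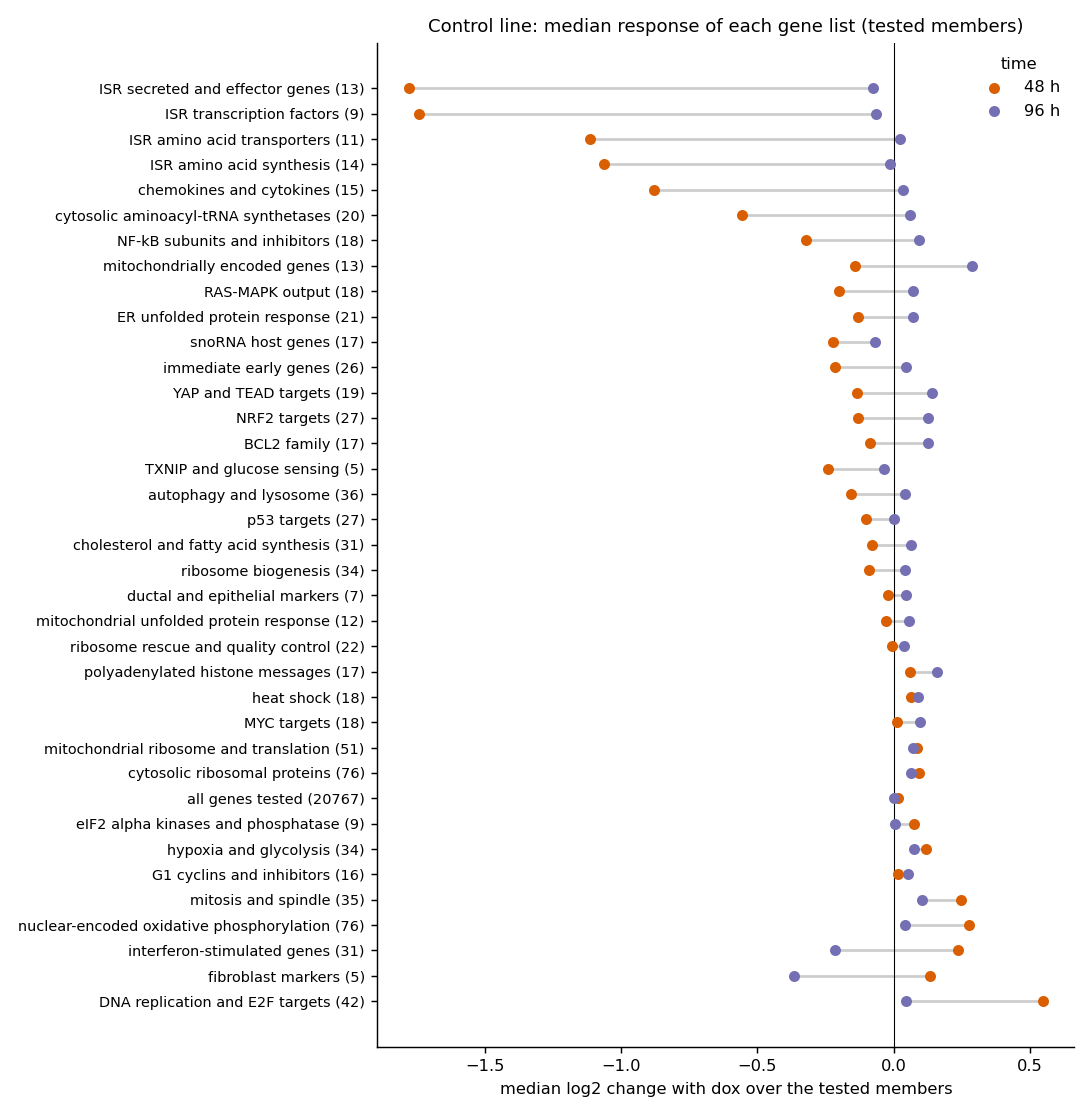
Median log2 change with dox over the tested members of each gene list (number in brackets) at 48 h (orange) and 96 h (purple) in the control line; ISR is the integrated stress response. The list of eIF2 alpha kinases and phosphatase lies at 0.08 and 0.005. The other integrated stress response lists lie between -1.78 and -0.56 at 48 h and near 0 at 96 h. The DNA replication list lies at 0.55 and 0.05.

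NF-kB genes fell at 48 h and in part rose at 96 h. NF-kB factors switch on inflammatory and survival genes and also their own inhibitors. Of 18 tested, 12 had a positive and 0 a negative difference (median 0.44). At 48 h 15 fell with dox and 0 rose, and at 96 h 6 rose and 1 fell, or 2 and 0 without both replicates numbered 3. RELB (ENSG00000104856.14, chromosome 19, 45001430 to 45038198 on the + strand of GRCh38), a subunit of the noncanonical arm, held 35.8, 38.6 and 34.2 CPM untreated and 14.1, 13.3 and 13.4 CPM with dox at 48 h. At 96 h it held 18.3, 19.1 and 17.9 CPM without and 21.8, 21.5 and 23.1 CPM with dox. The groups did not overlap at either time, and the dox libraries were the lower ones at 48 h and the higher ones at 96 h. Its response was -1.41 ± 0.05 and then 0.27 ± 0.05 (adjusted p = 0.00113). BIRC3, an inhibitor of apoptosis, reversed likewise, from -1.16 ± 0.06 to 0.26 ± 0.06 (adjusted p = 0.00356), while NFKB2 had -1.08 ± 0.05 at 48 h and 0.10 ± 0.05 at 96 h (adjusted p = 0.218).

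Several cytokine and growth signal genes reversed. Of 15 tested chemokines and cytokines, 10 were positive and 2 negative (median 0.85). IL1B (ENSG00000125538.12, chromosome 2, 112829751 to 112836903 on the - strand of GRCh38), interleukin 1 beta, held 2.98, 3.51 and 3.12 CPM untreated and 1.22, 0.893 and 1.18 CPM with dox at 48 h, and 1.02, 1.11 and 1.09 CPM untreated and 1.97, 2.63 and 2.41 CPM with dox at 96 h. It was lower with dox in every library at 48 h and higher in every library at 96 h (-1.55 ± 0.13 and 1.13 ± 0.14). LIF, a cytokine of the interleukin 6 family, responded at 48 h only (difference 1.01 ± 0.10). Immediate early genes were positive for 14 and negative for 2 of 26. KLF4 reversed from -1.39 ± 0.06 to 0.23 ± 0.06 (adjusted p = 0.0141, and 0.179 without both replicates numbered 3), while IER3 had 0.02 ± 0.06 at 96 h (adjusted p = 0.871). RAS-MAPK output genes were positive for 10 and negative for 1 of 18. DUSP6, the ERK phosphatase, reversed from -0.63 ± 0.07 to 0.45 ± 0.07, with other genes overlapping 40.5% of its exonic length. HBEGF, an EGF receptor ligand, went from -1.14 ± 0.08 to 0.24 ± 0.08 (adjusted p = 0.0477, and 0.171 without both replicates numbered 3). YAP and TEAD targets were positive for 7 and negative for 0 of 19, and CCN1, a matricellular protein, went from -0.30 ± 0.05 to 0.49 ± 0.05.

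Interferon-stimulated genes showed the reverse order. Of 31 tested, 15 had a negative and 2 a positive difference (median -0.39), 14 rose with dox at 48 h with 0 falling, and 6 fell at 96 h with 0 rising, or 2 without both replicates numbered 3. BST2 (ENSG00000130303.14, chromosome 19, 17402939 to 17405648 on the - strand of GRCh38), which tethers budding virus, held 16.2, 14.3 and 15.4 CPM untreated and 19.7, 19.1 and 21.4 CPM with dox at 48 h. At 96 h it held 9.13, 9.88 and 8.73 CPM untreated and 5.15, 5.96 and 6.104 CPM with dox, so the dox libraries were above the untreated ones at 48 h and below them at 96 h. IFIT1 and IFIT2, which bind viral RNA, changed by 0.54 ± 0.06 and 0.30 ± 0.05 at 48 h and by -0.20 ± 0.06 and -0.30 ± 0.05 at 96 h (adjusted p = 0.0373 and 1.94e-04). Without both replicates numbered 3 the adjusted p of IFIT1 at 96 h was 0.0749.

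Genes that responded at 96 h only were few and their changes small. KLK6 (ENSG00000167755.15, chromosome 19, 50958631 to 50969673 on the - strand of GRCh38), a secreted protease, held 63.3, 62.4 and 55.4 CPM untreated and 64.7, 65.5 and 66.9 CPM with dox at 48 h. At 96 h it held 69.5, 74.7 and 72.2 CPM untreated and 42.2, 40.5 and 43.8 CPM with dox, the 3 lowest of the 12 libraries (-0.77 ± 0.05, adjusted p = 3.08e-13). TCF7, a transcription factor of Wnt signalling, fell from 81.2, 80.3 and 78.9 CPM to 53.5, 54.03 and 48.95 CPM at 96 h; at 48 h its response was 0.14 ± 0.05 (adjusted p = 0.0404), small enough to lie within the 0.3 margin. SYTL1, of vesicle traffic, and ICAM5, an adhesion molecule, fell at 96 h by 0.92 on the log2 scale and 0.55 on the log2 scale. PTPRZ1, a receptor phosphatase, and FRMD6, a scaffold upstream of YAP, rose by 0.65 on the log2 scale and 0.56 on the log2 scale. PTPRZ1 held 22.5, 23.9 and 22.4 CPM with dox at 96 h and 13.7 to 16.96 CPM in the other 9 libraries.

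The largest negative differences were mostly reversals of genes at low level. They were picked by the same rule as the largest positive ones, which in part sets the separation of their libraries. MT1G (ENSG00000125144.14, chromosome 16, 56666731 to 56668065 on the - strand of GRCh38), a metallothionein that binds zinc and copper, held 1.04, 0.846 and 0.862 CPM untreated and 2.79, 3.45 and 3.52 CPM with dox at 48 h, and 0.508, 0.792 and 0.613 CPM untreated and 0.345, 0.1996 and 0.276 CPM with dox at 96 h. The dox libraries were the highest at 48 h and the lowest at 96 h, with responses of 1.82 ± 0.13 and -1.20 ± 0.22; metallothionein genes are near copies, so reads may be shared among them. ANK3, an ankyrin, fell at 96 h by 1.76 on the log2 scale after 0.31 ± 0.12 at 48 h. PEG10, a gene of retroviral origin, went from 0.83 ± 0.17 to -1.54 ± 0.18. AFAP1L2, an adaptor of SRC, and LRG1, a secreted glycoprotein, had differences of -1.88 ± 0.26 and -1.94 ± 0.29; the fall of LRG1 at 96 h lost its call without both replicates numbered 3 (adjusted p = 0.102). ENSG00000287864, which has no symbol, had -2.28 ± 0.29. PIK3CG, a PI3 kinase subunit, reversed upward: 1.28, 1.25 and 1.56 CPM untreated and 0.929, 0.679 and 0.831 CPM with dox at 48 h, 1.45, 1.17 and 1.14 and 2.71, 2.99 and 2.897 CPM at 96 h.

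The remaining lists were mixed. Hypoxia and glycolysis genes were positive for 9 and negative for 4 of 34, and genes around TXNIP, a brake on glucose uptake, for 2 and 1 of 5 (TXNIP 0.76 ± 0.09). MLXIPL, the glucose-sensing factor of that list, is 1 of the 6 genes with a larger response at 96 h (-0.25 ± 0.09 and -0.67 ± 0.11); its difference was -0.42 ± 0.14 (adjusted p = 0.0238). That call was lost without replicate 3 of the 48 h no-dox group, replicate 2 of the 96 h no-dox group or replicate 3 of the 96 h dox group (adjusted p = 0.0503, 0.0624 and 0.0919), and without both replicates numbered 3 (0.0674). Cholesterol and fatty acid synthesis was positive for 13 and negative for 4 of 31. Ribosome biogenesis was positive for 11 and negative for 2 of 34, snoRNA host genes for 8 and 1 of 17 (5 and 0 without replicate 1 of the 96 h no-dox group), MYC targets for 5 and 2 of 18. Cytosolic ribosomal proteins were negative for 4 of 76 and positive for 0, with 2 negative without replicate 2 of the 48 h no-dox group and 7 without replicate 3 of the 96 h dox group. Ribosome rescue and quality control genes were positive for 5 and negative for 1 of 22, led by GTPBP2 (1.18 ± 0.08), a GTPase of stalled ribosomes and an ATF4 target.

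Markers of other cell types were measured beside these results, and their part in the results was not tested. Of 10 leukocyte markers 3 were tested (2 positive, 1 negative), with a summed level of 25.8 to 26.8 CPM untreated and 29.1 to 29.4 CPM with dox at 48 h, and 26.7 to 28.2 and 26.6 to 30.6 CPM at 96 h. PTPRC, CD3E and NKG7 held at most 1 count in any library. Of 10 fibroblast markers 5 were tested, 0 positive and 3 negative (median -0.40). Their sum, with COL1A2 at a mean of 203 CPM, was higher with dox at 48 h and lower with it at 96 h: 170.6 to 181 CPM untreated and 249 to 267.4 CPM with dox at 48 h, 233.4 to 241 and 193.3 to 219.4 CPM at 96 h. COL1A1 held a mean of 0.605 CPM, and DCN, FAP and THY1 held at most 1 count. Of 8 endothelial markers 3 were tested (0 positive, 1 negative, and 2 in all without replicate 1 or 2 of the 48 h no-dox, replicate 1 of the 48 h dox or replicate 1 or 3 of the 96 h dox group), with sums of 90.3 to 103.4 CPM untreated and 93.5 to 99.4 CPM with dox at 48 h, and 80.9 to 83.4 and 77.1 to 84.6 CPM at 96 h, and PECAM1 held at most 2 counts. Ductal and epithelial markers passed for 2 in each direction of 7 tested, and for 0 positive and 2 negative without both replicates numbered 3. In bulk RNA, fewer cells of a kind and less RNA per cell cannot be told apart.

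The HBS1L line, whose libraries are separate from those of the control line, allowed the same difference to be read a second time. There 4658 genes (22.4%) differed between the 2 times, 2536 in the positive direction (12.2%) and 2122 in the negative (10.2%). Of the 5496 genes of the control line, 4818 had the same sign in the HBS1L line (87.7%, against 68.1% of all genes tested), 2603 passed in the same direction and 41 in the opposite. Across these 5496 genes Pearson's r was 0.76, a description only, since genes are not independent and were chosen in 1 of the 2 lines. The responses of the HBS1L line hold the effect of its guide as well. The integrated stress response lists passed for 56 members in the positive and 1 in the negative direction there (median 0.95), and DNA replication for 0 and 33 of 42 (median -0.39). Respiratory chain genes of the nucleus did not repeat the control line's result. Of 76, 1 passed in the positive and 5 in the negative direction (median -0.009), against 2 and 34 in the control line. In the control line the mean log2 level of the 76 stress response genes was 6.83 to 6.86 in the untreated 48 h libraries and 5.86 to 5.87 with dox, against 6.54 to 6.58 and 5.84 to 5.89 in the HBS1L line. At 96 h it was 5.954 to 5.998 without dox and 5.94 to 5.99 with dox in the control line, so these groups overlapped. In the HBS1L line it was 5.94 to 6.04 without dox and 6.23 to 6.39 with dox at 96 h. The positive difference there thus held a rise with dox at 96 h, which the control line did not show. The mean level of the DNA replication genes at 96 h in the HBS1L line was 5.94 to 6.09 without dox and 5.81 to 5.93 with dox. The control groups overlapped for this list too.

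**Figure D4:**
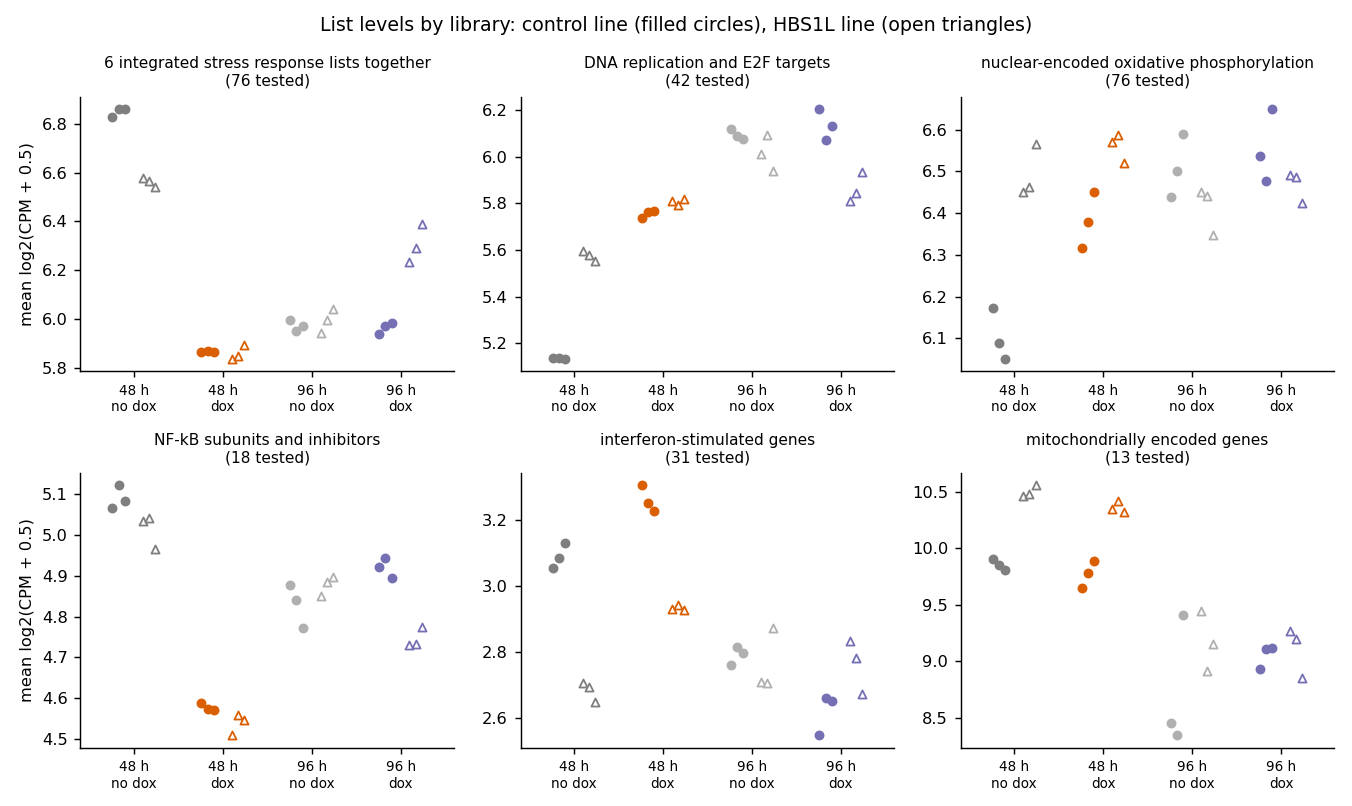
Mean log2(CPM + 0.5) over the tested members of 6 gene lists (vertical) in each library of the control line (filled circles) and the HBS1L line (open triangles), by time and dox. In both lines the untreated 48 h libraries are the highest for the stress response and the lowest for DNA replication, and the 3 untreated 96 h control libraries are split for the mitochondrial genome.

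The change between times itself differed between the control and the HBS1L line for 637 genes (3.07%), 256 in the positive direction (1.23%) and 381 in the negative (1.83%). Leaving out 1 control library at a time gave 290 to 706. The count was 316 without replicate 3 of the 48 h no-dox group, 422 and 290 without replicates 2 and 3 of the 48 h dox group, 334 without replicate 2 of the 96 h no-dox group, and 417 and 408 without replicates 1 and 2 of the 96 h dox group. Cholesterol and fatty acid synthesis was one list that differed: 12 of 31 members were more positive in the control line and 0 more negative, with a median of 0.11 in the control and -0.16 in the HBS1L line. INSIG1, which retains the sterol sensor, had 0.45 ± 0.05 and -0.12 ± 0.05 in the 2 lines, and CYP51A1, a sterol demethylase whose exons are overlapped by other genes over 83.2% of their length, 0.67 ± 0.06 and 0.27 ± 0.06. Cytosolic ribosomal proteins were more negative in the control line for 19 of 76, and 61 of them were positive in the HBS1L line itself. KLK6 had -0.90 ± 0.07 in the control and 0.07 ± 0.07 in the HBS1L line, a difference of -0.97 ± 0.10 (adjusted p = 1.37e-07). TCF7 had -0.75 ± 0.07 and -0.62 ± 0.07, a difference of -0.13 ± 0.10 (adjusted p = 0.556). Against the PELO line, 4259 genes differed (20.5%). Of the 5496 genes, 4600 had the same sign in the PELO line (83.7%), 3417 passed in the same direction and 318 in the opposite, and 1855 differed between the 2 lines. Of the 76 stress response genes, 50 were positive and 6 negative in the PELO line (median 0.35), against 4595 and 4143 of all 20767 genes tested. The control line was more positive for 51 of the 76 and more negative for 5, against 2073 and 2186 of all genes tested. Responses of the PELO line hold the effect of its guide as well.

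**Figure D5:**
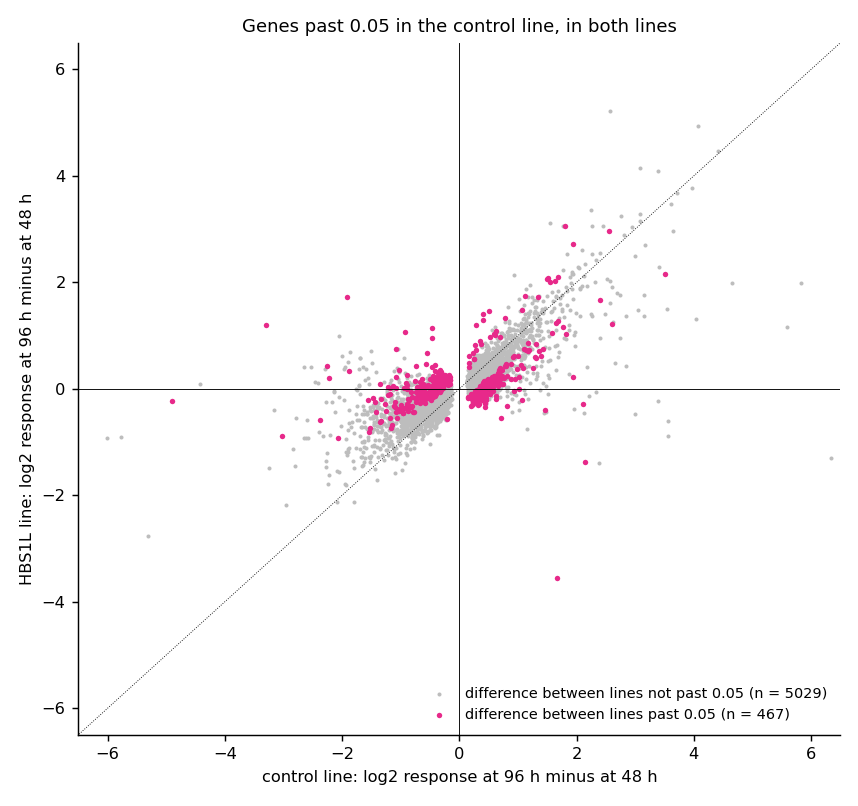
Difference between the responses (log2, 96 h minus 48 h) in the control line (horizontal) and the HBS1L line (vertical) for the 5496 genes past 0.05 in the control line. The dotted line marks equality, and the 467 genes in pink differ between the lines. Values in the HBS1L line were smaller in the median. The genes were chosen and split by their control line values, which in part sets this. Positive genes of the control line had medians of 0.37 in the control and 0.26 in the HBS1L line, and negative genes -0.44 and -0.24.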

How the data were processed

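The members and the gene lists were chosen with earlier results of these data known. Polyadenylated RNA of 36 libraries was sequenced. The authors deposited a table of expected counts for 61544 genes, in which 45.6% of the values above 0 were not whole, and a log2 table whose values were used only as an alternative. Per the submitters' processing notes, the tools were DRAGEN, featureCounts from Subread, edgeR and limma, on GRCh38.p13; their roles, settings and strand use are not stated there. Of the gene IDs, 61399 had a symbol and 58298 had coordinates in the annotation.

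Counts were rounded. Genes were filtered with filterByExpr (minimum count 10, minimum total 15) over 12 groups, scaled by TMM and fitted with edgeR 4.0.16 (robust quasi-likelihood) over all 36 libraries, and p-values were adjusted by Benjamini-Hochberg over 20767 genes at 0.05. The fit was tested on simulated data. Per-library values are CPM on TMM-scaled sizes. Control libraries held 46219974 to 62618372 counts. DESeq2 1.42.0, limma 3.58.1, other filters, other margins, a control-only fit, a replicate block and leaving out libraries were alternatives.

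A rule named 106 genes: PELO and HBS1L; the 3 members of lowest adjusted p of each list with at least 50% of its tested members past the threshold, and 1 member of each other list; the 6 largest differences in each direction; and the 6 largest 96 h responses of the 96 h only and opposite classes; the last 2 sets had a floor of 1 CPM. For the largest differences the rule also asked that all dox libraries lie on 1 side of the no-dox libraries at 48 h or at 96 h. ATF4, ASNS, CHAC1, FGF21, OMA1, the synthetases that did not pass, the cell type markers and any other gene named outside this rule were chosen after their values were seen.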

Additional observations from a re-analysis of the deposited data

Results flagged for a closer look

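In the control line, 5496 genes had unlike dox responses at 48 h and 96 h, by a test of that difference. The same change between times differed between the control and the HBS1L line for 637 genes and between the control and the PELO line for 4259 genes. Outliers within a group were not tested, since each group held 3 libraries.

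Of the 106 named genes, 29 differed between the control and the HBS1L line in this test; the values here are control minus HBS1L on the log2 scale. More positive in the control line were PIK3CG (1.72), IL21R (1.35), H2AC6 (0.79), BIRC3 (0.68), PTPRZ1 (0.65), INSIG1 (0.57), IER3 (0.46), PPP1R15A (0.46), RELB (0.41), CYP51A1 (0.40), MAFG (0.33), SQSTM1 (0.31) and HERPUD1 (0.30). More negative were MT1G (-2.13), PEG10 (-1.79), ANK3 (-1.15), KLK6 (-0.97), SYTL1 (-0.96), ZFAS1 (-0.89), BST2 (-0.64), RPL11 (-0.62), PCNA (-0.51), DDIT4 (-0.47), KRT19 (-0.45), PTTG1 (-0.44), AREG (-0.43), TRIB3 (-0.41), ATF5 (-0.39) and PSAT1 (-0.38). Exons of other genes overlap 46.9% of the exonic length of ZFAS1, 83.2% of that of CYP51A1 and 41.2% of that of DDIT4, and strand use in the counting is not given in the sources used here.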

How the results depend on the processing

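The count of genes whose responses differed was 5496. It was 5431 in a fit of the control line alone, 5354 with DESeq2, 5248 with limma, 4715 without a filter on low counts, 5444 at 1 CPM or more and 4831 without both replicates numbered 3 of the 96 h groups, an alternative chosen after seeing the data. Leaving out 1 library at a time gave 4706 to 5230. The 96 h response depended on single libraries (481 to 2141 genes, and 811 without both replicates numbered 3), as did the difference from the HBS1L line (290 to 706). With limma that difference split into 276 higher and 267 lower, and at 1 CPM or more into 426 and 408, against 256 and 381. A margin of 0.2 gave 1984 genes at 48 h only, 169 at 96 h only and 471 opposite, and a margin of 0.5 gave 636 at 96 h only and 117 opposite. Leaving out 1 library gave 100 to 550 at 96 h only and 174 to 391 opposite, and leaving out both replicates numbered 3 gave 234 at 96 h only. Whether replicate numbers pair the samples was not settled. Deviations of same-numbered dox and no-dox libraries correlated at -0.109 to 0.096, and those of libraries with unlike numbers at -0.091 to 0.069. Deviations from means of 3 libraries cannot exclude pairing. With a replicate block the main count was 5134, the counts at 48 h and 96 h were 6932 and 1393, and the difference from the HBS1L line was 353. Of the values of named genes under the alternatives, 2085 kept their direction and side of the threshold and 23 lost the call (MT-ND5 in 13, MLXIPL in 5, CD68 in 3, EIF2AK1 and KRT7 in 1 each), and 0 reversed. Of the counts over gene lists, 725 stayed within 1.5 times and 35 did not. The causes were not tested. Depth limits genes near 0 counts, and time cannot be told apart from sample block.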
